A study of Mus musculus with 18 samples.

Results

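Müller glia homeostatic genes were followed in mouse retinas after damaging light, with and without the galectin-3 inhibitor TD139. The group holds 10 genes chosen by symbol, namely Glul, Slc1a3, Aqp4, Kcnj10, Sox9, Sox2, Abca8a, Dkk3, Car2 and Car14, of 23420 gene symbols counted. All 10 were in the count tables and all 10 passed the filter on low counts, which kept 15196 genes. The choice of genes did not use these measurements, although it was made with earlier results of the data known.

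Müller glia are the radial glial cells that span the retina from the photoreceptors to its inner surface. They take up glutamate released at synapses and turn it into glutamine, they buffer potassium and water, and they help to hold extracellular pH steady. After injury they are known to become gliotic, with more intermediate filament protein and, in many settings, a change in these support functions. Several of the genes are also active in retinal astrocytes or in some neurons, so a whole-retina level is not that of Müller glia alone.

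RNA came from whole retinas of wild-type BALB/cJ mice, an albino strain that is sensitive to light, of both sexes and aged 8 to 10 weeks per the methods of the study. The 3 naïve mice had no light exposure and no treatment. The 3 vehicle-treated mice received the solvent DMSO and 15000 lux for 1 h, and the 3 TD139-treated mice received the same light and 15 mg/kg TD139 in DMSO, injected daily into the peritoneum from the day before the light. Retinas of the light-exposed mice were taken 4 days after it. Vehicle-treated against naïve mice addressed what light damage changed, and TD139-treated against vehicle-treated mice what the inhibitor changed after the same light. Naïve mice had neither light nor solvent, so an effect of light and one of DMSO injections cannot be told apart. In whole retinas, likewise, fewer cells of a type and less RNA per cell cannot be told apart.

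Poly(A) RNA was sequenced in 2 runs per mouse, and their reads were added. Each mouse had 26171887 to 30201517 reads on genes, and 3 counts, the floor used here, stood for 0.0993 to 0.115 CPM (reads of a gene scaled to the size of the library) for counting error only. All members were far above this level. Levels are given as CPM after scaling with the trimmed mean of M values (TMM), and differences as log2 fold changes with their standard error (SE) from edgeR's quasi-likelihood test, called when the Benjamini-Hochberg adjusted p over all 15196 genes was under 0.05. The vehicle-treated mouse 2 had 6928 CPM of lens markers in sum, against 0.418 to 282 CPM in the other 8 mice, and results were also computed without it.

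In naïve retinas the members spanned a wide range of levels per transcript length, here CPM per kilobase of the longest annotated transcript. Glul, which encodes glutamine synthetase, was at 926 ± 112 (SD, n = 3), above carbonic anhydrase gene Car2 at 307 ± 11.9 and Dkk3 at 226 ± 11.6. Car14 followed at 76.8 ± 18.2, Slc1a3 at 47.2 ± 5.17, Abca8a at 27.4 ± 7.32 and Kcnj10 at 20.5 ± 3.15. The lowest were Sox2 at 14.4 ± 0.993, Aqp4 at 13.0 ± 0.923 and the transcription factor gene Sox9 at 4.36 ± 1.01. Neighbours in this order did not overlap between the naïve mice, except Abca8a with Kcnj10 and Sox2 with Aqp4. Of 20 further genes known from Müller glia, all were detected above the filter and summed to 3712 to 3900 CPM in naïve mice, so Müller glia genes outside the group were measured in the same retinas.

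Promoter sequences show how the members differ near their starts. The RefSeq table of promoters (GRCm38.p6, 250 bases before to 50 after the start) held 6 of the 10 members, Glul, Slc1a3, Kcnj10, Sox2, Abca8a and Car14. Both strands were searched for ACAAT and ACAAAG, cores bound by SOX factors, for the STAT motif TTCNNNGAA and for the TATA box letters TATAAA, none of which overlapped another match in these promoters. Of all 32851 promoters in the table, 31.0% held ACAAT, 18.7% ACAAAG, 8.30% TTCNNNGAA and 13.6% TATAAA. The 4 member promoters with a match are shown in the gene's direction, with the matched letters in capitals. They are those of Slc1a3 at chr15:8710758-8711057 (- strand), Sox2 at chr3:34649745-34650044 (+ strand), Kcnj10 at chr1:172340960-172341259 (+ strand) and Abca8a at chr11:110095888-110096187 (- strand).
Slc1a3: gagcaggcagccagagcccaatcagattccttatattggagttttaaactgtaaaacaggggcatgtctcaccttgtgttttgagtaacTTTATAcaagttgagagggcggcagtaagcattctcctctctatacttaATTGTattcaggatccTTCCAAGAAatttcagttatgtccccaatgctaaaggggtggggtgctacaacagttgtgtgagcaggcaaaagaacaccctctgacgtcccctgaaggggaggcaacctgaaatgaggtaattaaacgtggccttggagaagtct
Sox2: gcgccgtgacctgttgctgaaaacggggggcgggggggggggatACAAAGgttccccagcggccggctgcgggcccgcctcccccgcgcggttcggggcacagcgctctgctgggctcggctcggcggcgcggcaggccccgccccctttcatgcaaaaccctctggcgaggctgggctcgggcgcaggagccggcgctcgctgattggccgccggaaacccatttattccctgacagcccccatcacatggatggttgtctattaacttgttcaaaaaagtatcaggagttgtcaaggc
Kcnj10: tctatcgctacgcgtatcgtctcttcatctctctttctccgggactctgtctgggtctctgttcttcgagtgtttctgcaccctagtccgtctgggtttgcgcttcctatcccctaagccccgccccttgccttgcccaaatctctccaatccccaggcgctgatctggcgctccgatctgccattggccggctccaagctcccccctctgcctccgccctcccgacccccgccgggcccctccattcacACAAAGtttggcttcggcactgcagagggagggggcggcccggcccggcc
Abca8a: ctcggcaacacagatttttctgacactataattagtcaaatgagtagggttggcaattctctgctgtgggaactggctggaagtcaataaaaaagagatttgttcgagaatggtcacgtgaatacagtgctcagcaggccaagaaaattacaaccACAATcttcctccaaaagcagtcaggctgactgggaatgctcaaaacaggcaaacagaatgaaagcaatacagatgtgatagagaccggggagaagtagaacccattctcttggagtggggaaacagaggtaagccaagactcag

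Slc1a3 held TATAAA and ACAAT on the opposite strand, beginning 161 and 112 bases before the RefSeq start, and the STAT letters 96 bases before it. Sox2 had ACAAAG 206 bases before the start, Kcnj10 had it at the start itself, and Abca8a had ACAAT 95 bases before the start. The RefSeq starts of Sox2, Slc1a3 and Glul lie upstream of the gene starts in GENCODE M21, and those of Abca8a and Car14 lie downstream. For Kcnj10 the starts are the same. Neither the Glul nor the Car14 window held any of these letters. GC content was 45.3% for Slc1a3 and 44.3% for Abca8a, against 61.0 to 66.3% for the other 4 and a median of 52.7% over all promoters. A match of letters is a description only and does not show binding.

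Compared with naïve mice, 5 of the 10 members were higher in vehicle-treated mice 4 days after light and none was lower. These were Sox2, Sox9, Slc1a3, Aqp4 and Dkk3, with levels 1.68 to 1.90 times the naïve level. Over all tested genes 4.91% were called higher and 2.89% lower in this comparison. The median log2 fold change of the members was 0.77, against -0.00175 for all tested genes, and all 10 estimates were above 0. Glul and Car2, the highest members per length, were not called by edgeR. No member was lower at an unadjusted p under 0.05 either, where 7 were higher, beside 14.4% of all tested genes. DESeq2 and limma voom called 6 and 7 members higher and 0 lower, and 8.97% and 12.3% of all their tested genes higher.

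In TD139-treated mice, 3 of the members, Sox2, Dkk3 and Car14, were lower than in vehicle-treated mice and none was higher, with levels 0.530 to 0.702 times those of vehicle-treated mice. This comparison moved many genes, as 16.2% of all tested genes (2455) were called lower and 17.2% (2617) higher. Without TD139-treated mouse 2 these counts were 759 and 867, without mouse 3 they were 867 and 1050, and over all fits with 1 mouse left out they ranged up to 2931 and 2995. The members' median was -0.29 against -0.0164 for all genes, and 9 of 10 estimates were below 0. At an unadjusted p under 0.05, 5 were lower and 0 higher, and DESeq2 and limma voom called 4 and 5 lower and 0 higher, where 23%, 18.8% and 22.8% of all tested genes were lower. Compared with naïve mice, only Aqp4 was called higher in TD139-treated mice and no member lower, while 2.72% of all tested genes were called higher and 2.38% lower. The median was 0.28 against -0.00227, and by unadjusted p, DESeq2 and limma voom 3, 2 and 2 members were higher and 0 lower. These ways of calling put 15.5%, 10.3% and 19.9% of all tested genes higher, so the 2 members called by limma voom were at the share of all genes. The vehicle-treated mice enter the first and the second comparison alike, so opposite directions in the pair are not independent of each other. No member reached the study's cut-off of a log2 fold change of 2 in any comparison.

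**Figure D1:**
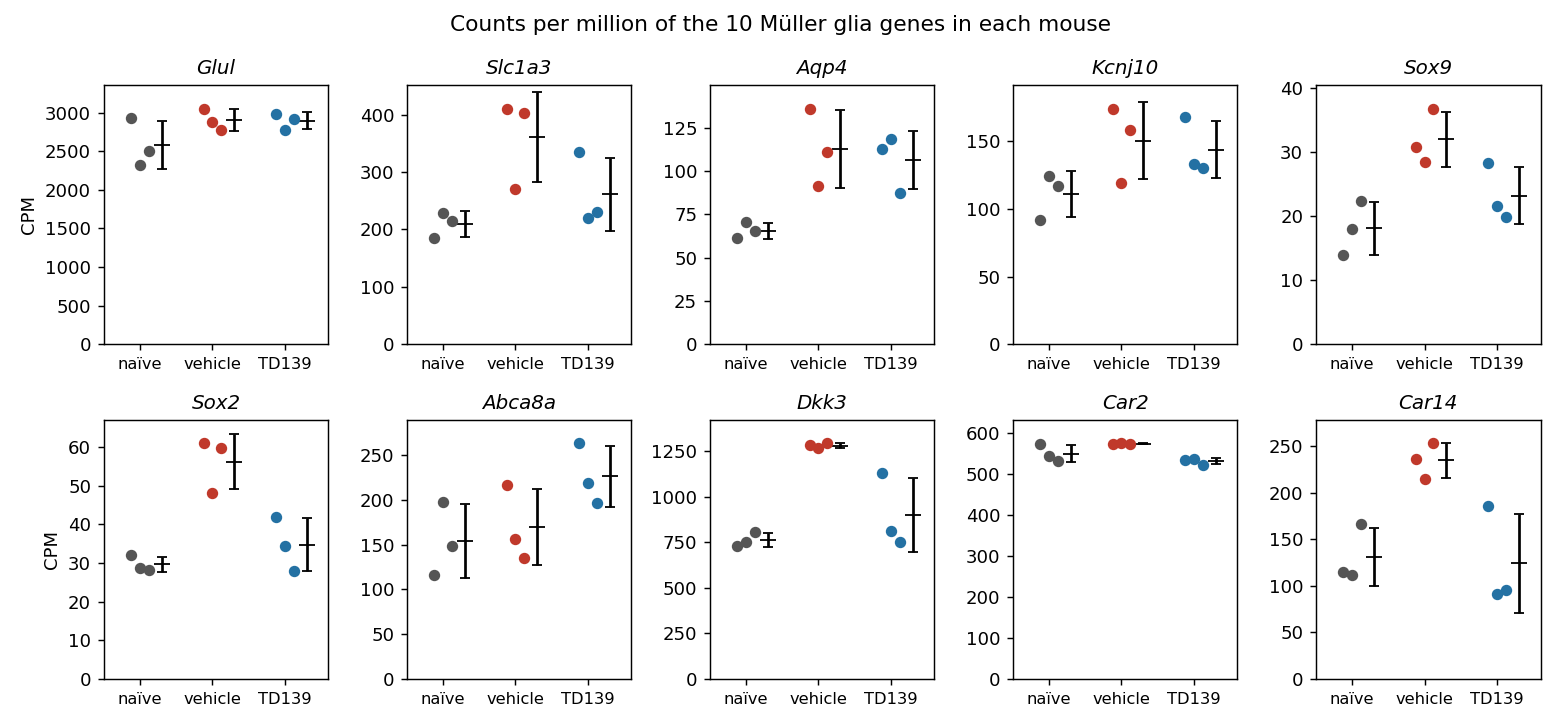
CPM of each of the 10 members on the y axis (linear, from 0) for naïve, vehicle-treated and TD139-treated mice, 1 point per mouse, with the mean and SD of each group as a black bar. In 6 panels (Slc1a3, Aqp4, Sox9, Sox2, Dkk3 and Car14) all 3 vehicle-treated mice sit above all 3 naïve mice, and Car2 spans the narrowest range relative to its level.

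Groups that do not overlap were also counted. For 6 members the lowest vehicle-treated mouse exceeded the highest naïve mouse, as it did for 16.7% of all tested genes. All 3 TD139-treated mice were below all 3 vehicle-treated mice for 5 members, namely Sox9, Sox2, Dkk3, Car2 and Car14, beside 25.4% of all tested genes. All 3 TD139-treated mice were above all 3 naïve mice for Aqp4 and Kcnj10, beside 15.3% of all tested genes.

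The genes of glutamate handling differed from each other. Glul (chr1:153899944-153909723, + strand, GRCm38) had 2933, 2328 and 2497 CPM in naïve, 3054, 2873 and 2772 in vehicle-treated and 2989, 2775 and 2918 in TD139-treated mice. The naïve mouse 1 lay within the range of the light-exposed groups, and all groups overlapped. The log2 fold change was 0.16 (95% interval -0.06 to 0.39) for vehicle-treated against naïve mice and 0.00 (-0.23 to 0.23) for TD139-treated against vehicle-treated mice, with adjusted p-values of 0.325 and 0.987. limma voom, by contrast, called Glul higher in vehicle-treated (0.28, adjusted p = 0.0343) and in TD139-treated (0.26, adjusted p = 0.0218) against naïve mice. Corrected for length and GC content, the value between the light-exposed groups was 0.10 (-0.11 to 0.31).

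Slc1a3 (chr15:8634124-8710764, - strand) encodes GLAST, the glutamate transporter of Müller glia. It had 184, 229 and 215 CPM in naïve, 411, 271 and 403 in vehicle-treated and 335, 219 and 230 in TD139-treated mice. Each vehicle-treated mouse was above each naïve mouse, with mouse 2 closest to them, while the TD139-treated mouse 2 lay in the naïve range, mouse 3 just above it and mouse 1 within that of the vehicle group. Slc1a3 changed by a log2 fold of 0.79 ± 0.19 (SE, adjusted p = 0.0386) for vehicle-treated against naïve mice, and -0.47 ± 0.19 (adjusted p = 0.0850) for TD139-treated against vehicle-treated mice. edgeR did not call the latter, while DESeq2 (adjusted p = 0.0403) and limma voom (adjusted p = 0.0153) called it lower.

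Among 18 other genes of glutamate and glutamine handling, 1 rose and 1 fell in vehicle-treated against naïve mice, with a list median of -0.06. The cystine-glutamate exchanger gene Slc7a11 went from 10.6 to 38.9 CPM on average (log2 fold change 1.88, adjusted p = 0.0127), and the transporter gene Slc1a7 fell by 0.53 on the log2 scale (adjusted p = 0.0255). With TD139 instead of vehicle, 3 rose and 1 fell, with a median of 0.13. Slc1a2 (log2 fold change 0.55, adjusted p = 0.00733) and Slc1a7 (0.52, adjusted p = 0.00888) were among those that were higher, while Slc7a11 was lower (-1.41, adjusted p = 0.00568). In a fit corrected for the length and GC content of transcripts, given further on, 4 rose and 3 fell, Slc1a7 and Slc7a11 stayed called and Slc1a2 did not. The same fit called 3 higher (Glud1, Slc1a1 and Slc7a11) and 1 lower in vehicle-treated against naïve mice. None of the 18 was called by edgeR in TD139-treated against naïve mice, where 4 were higher and 1 lower at an unadjusted p under 0.05, 3 and 0 by DESeq2, and 6 and 1 by limma voom.

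Aqp4 (chr18:15389496-15410982, - strand) encodes the water channel of glial endfeet. Its levels were 61.2, 70.5 and 65.2 CPM in naïve, 136, 91.3 and 111 CPM in vehicle-treated and 113, 119 and 87.5 CPM in TD139-treated mice. Both light-exposed groups lay above the naïve mice without overlap, and they overlapped each other. Aqp4 had a log2 fold change of 0.78 ± 0.15 (SE, adjusted p = 0.0216) for vehicle-treated and 0.70 ± 0.15 (adjusted p = 0.0420) for TD139-treated against naïve mice, and -0.09 (95% interval -0.42 to 0.25, adjusted p = 0.680) between the light-exposed groups. Corrected for the length and GC content of transcripts, these last values became 0.38 (adjusted p = 0.199), no longer called, and -0.48 (adjusted p = 0.0339), then called.

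Kcnj10 (chr1:172341210-172374085, + strand), encoding the potassium channel Kir4.1, had 91.7, 124 and 117 CPM in naïve, 174, 119 and 158 in vehicle-treated and 168, 133 and 131 in TD139-treated mice. The vehicle-treated mouse 2 lay among the naïve mice, whereas every TD139-treated mouse was above them. The log2 fold change was 0.44 (95% interval 0.08 to 0.80, adjusted p = 0.110) in vehicle-treated and 0.38 (0.02 to 0.73, adjusted p = 0.153) in TD139-treated against naïve mice, so neither was called, and it was -0.06 (-0.42 to 0.29, adjusted p = 0.776) between the light-exposed groups. With length and GC content corrected for, Kcnj10 was at 0.21 (-0.12 to 0.54) in TD139-treated against naïve mice and at -0.28 (-0.61 to 0.05) between the light-exposed groups, neither called. Without vehicle-treated mouse 2 it was called higher in vehicle-treated mice (0.58, adjusted p = 0.0475).

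Of 19 other genes for potassium and water transport and its membrane anchors, 18 were tested, and 1 rose in vehicle-treated mice, Dtna, which encodes dystrobrevin alpha of the dystrophin complex (log2 fold change 0.54, adjusted p = 0.0423). The list median was 0.23. Between the light-exposed groups, the dystrophin gene Dmd rose with TD139 (1.26, adjusted p = 0.00500) and the cation channel gene Trpv4 fell (-1.09, adjusted p = 0.0172), with a median of -0.00534. Dmd was also the single gene of the list called in TD139-treated against naïve mice (0.70, adjusted p = 0.0458). With the correction for length and GC content 2 rose and 2 fell in vehicle-treated mice, 3 rose and 2 fell between the light-exposed groups, with Dmd and Trpv4 still called, and none was called in TD139-treated against naïve mice.

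The SOX transcription factors keep Müller glia in their differentiated state and are shared with retinal progenitors. Sox2 (chr3:34650405-34652461, + strand) had 32.0, 28.8 and 28.1 CPM in naïve, 61.0, 48.1 and 59.7 in vehicle-treated and 41.8, 34.3 and 28.1 in TD139-treated mice. The vehicle-treated mice stood above both other groups without overlap, and the TD139-treated mouse 3 was at the lowest naïve level. The log2 fold change of Sox2 was 0.92 ± 0.15 (SE, adjusted p = 0.0133) for vehicle-treated against naïve mice, -0.70 ± 0.15 (adjusted p = 0.00782) between the light-exposed groups, and 0.23 (95% interval -0.09 to 0.55, adjusted p = 0.326) for TD139-treated against naïve mice. Correction for length and GC content moved the last value to 0.44 (0.14 to 0.74), which was not called (adjusted p = 0.161), and the one between the light-exposed groups to -0.45.

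Sox9 (chr11:112782224-112787760, + strand) had the same order of groups at lower levels, with 13.9, 17.9 and 22.2 CPM in naïve, 30.7, 28.4 and 36.7 in vehicle-treated and 28.2, 21.5 and 19.8 in TD139-treated mice. The lowest vehicle-treated mouse and the highest TD139-treated mouse were nearly level. For Sox9 the log2 fold change was 0.82 ± 0.19 (SE, adjusted p = 0.0290) for vehicle-treated against naïve mice and -0.46 ± 0.19 (adjusted p = 0.0763) for TD139-treated against vehicle-treated mice, which limma voom called lower (-0.56, adjusted p = 0.00740). The long noncoding transcript Sox2ot overlaps all 2057 bases of the Sox2 transcript on the same strand. It had 170 to 571 counts per mouse beside 710 to 1776 for Sox2, and reads in the shared bases could belong to either gene.

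Of 22 other SOX factors and regulators of retinal progenitors, 4 rose in vehicle-treated against naïve mice and none fell, with a median of 0.46 (0 lower by DESeq2, 1 by limma voom and 1 at an unadjusted p under 0.05). They were Lhx2 (log2 fold change 0.54, adjusted p = 0.0317), Notch1 (0.62, adjusted p = 0.0206), Nfib (0.88, adjusted p = 0.0180) and Nfia (0.62, adjusted p = 0.0340). In TD139-treated against vehicle-treated mice 6 fell and 1 rose, with a median of -0.28. Among those that fell were Rax (log2 fold change -0.36, adjusted p = 0.0221), Lhx2 (-0.48, adjusted p = 0.0171) and Notch1 (-0.36, adjusted p = 0.0386). With the correction for length and GC content Rax (-0.20, adjusted p = 0.112) and Lhx2 (-0.22, adjusted p = 0.204) were not called, and 4 genes fell (Hes1, Notch1, Nfib and Nfia) and none rose. Compared with naïve mice, Sox5 and Sox6 were higher and Rax was lower in TD139-treated mice (median 0.20, log2 fold changes 0.77, 0.84 and -0.43 with adjusted p-values of 0.0406, 0.0420 and 0.0457).

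Dkk3 (chr7:112116017-112159057, - strand) encodes a secreted Dickkopf family glycoprotein. It had 727, 752 and 803 CPM in naïve, 1283, 1264 and 1292 in vehicle-treated and 1130, 811 and 753 in TD139-treated mice. The 3 vehicle-treated mice differed little from each other, and the TD139-treated mice were spread from the naïve range to just under the vehicle group. For Dkk3 the log2 fold change was 0.75 ± 0.14 (SE, adjusted p = 0.0192) for vehicle-treated against naïve mice, -0.51 ± 0.14 (adjusted p = 0.0178) between the light-exposed groups, and 0.24 (95% interval -0.06 to 0.54, adjusted p = 0.270) for TD139-treated against naïve mice. Of 13 other Dickkopf and Wnt co-receptor genes, 11 were tested. None was called by edgeR in vehicle-treated or TD139-treated against naïve mice (medians 0.38 and 0.01). At an unadjusted p under 0.05, 3 and 2 passed, by DESeq2 1 and 0, and by limma voom 2 and 2. Against vehicle-treated mice Kremen1 fell (-0.60, adjusted p = 0.0150) and the co-receptor gene Lrp6 rose (0.64, adjusted p = 0.0104) in TD139-treated mice, with a median of -0.39. Kremen1 stayed called with the correction for length and GC content and Lrp6 did not.

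The carbonic anhydrase genes, whose enzymes interconvert carbon dioxide and bicarbonate, differed from each other. Car2 (chr3:14886273-14900770, + strand), the cytosolic form, was the steadiest member, at 573, 544 and 531 CPM in naïve, 572, 575 and 573 in vehicle-treated and 534, 536 and 523 in TD139-treated mice. All TD139-treated mice were below all vehicle-treated mice, but the step was small, and the log2 fold change of -0.11 (95% interval -0.29 to 0.07) was not called (adjusted p = 0.315). Against naïve mice the change was 0.06 (-0.12 to 0.24, adjusted p = 0.656) in vehicle-treated and -0.05 (-0.23 to 0.13, adjusted p = 0.736) in TD139-treated mice. Corrected for length and GC content, both values for TD139-treated mice turned in direction, to 0.16 (-0.01 to 0.33, adjusted p = 0.159) against vehicle and 0.18 (0.00993 to 0.35, adjusted p = 0.276) against naïve mice.

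Car14 (chr3:95897768-95904691, - strand), the membrane-bound form, had 115, 112 and 167 CPM in naïve, 236, 215 and 253 in vehicle-treated and 186, 91.3 and 96.1 in TD139-treated mice. The vehicle-treated mice were above both other groups, and the TD139-treated mice 2 and 3 were below every naïve mouse while mouse 1 was above them. For Car14 it came to a log2 fold change of 0.84 ± 0.28 (SE, adjusted p = 0.0923) for vehicle-treated against naïve mice, which edgeR did not call, and -0.92 ± 0.28 (adjusted p = 0.0336) for TD139-treated against vehicle-treated mice. DESeq2 (adjusted p = 0.00688) and limma voom (1.00, adjusted p = 0.00574) called the rise in vehicle-treated mice. edgeR did so with only the 2 groups compared (adjusted p = 0.0117) or without TD139-treated mouse 1 (adjusted p = 0.00482). The rise was called in 3 of 12 other fits with every mouse of the groups compared, and in 1 of 9 with a mouse left out (adjusted p up to 0.229). The fall was called in 8 of these 12 fits and in 3 of these 9. It was not called by edgeR with only the 2 groups compared (adjusted p = 0.0503) or without a filter on low counts (adjusted p = 0.0543). Nor was it called with length and GC content corrected for (adjusted p = 0.175) or without vehicle-treated mouse 2 (adjusted p = 0.0517). Car14 shares 521 bases with Aph1a on the opposite strand, and Aph1a had 488 to 809 counts per mouse beside 2433 to 7543 for Car14.

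Of 21 further carbonic anhydrase and acid-base transport genes, 18 were tested and 2 rose in vehicle-treated mice, the mitochondrial Car5b (log2 fold change 0.88, adjusted p = 0.0255) and Car13 (adjusted p = 0.0196). Car13 had 0.113 CPM in naïve mice, about the floor, and 1.12 CPM in vehicle-treated mice. The list median was 0.06. Compared with vehicle, 2 rose and 4 fell with TD139 (median -0.10). The monocarboxylate transporter gene Slc16a1 (0.52, adjusted p = 0.0257) and the bicarbonate cotransporter gene Slc4a7 (1.53, adjusted p = 0.0155) were higher, and the transporter chaperone gene Bsg (-0.49, adjusted p = 0.00936) and Car5b (-0.91, adjusted p = 0.00757) were lower. With the correction for length and GC content 1 was higher (Slc4a7) and 2 lower (Car13 and Car5b), while Slc16a1 (0.22, adjusted p = 0.260) and Bsg (-0.00102, adjusted p = 0.995) were not called. In TD139-treated against naïve mice only Slc16a3 was called (-0.94, adjusted p = 0.0432, median 0.03).

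Abca8a (chr11:110025634-110095978, - strand) encodes a lipid transporter of the ABCA family. It had 116, 198 and 148 CPM in naïve, 217, 157 and 135 in vehicle-treated and 263, 219 and 197 in TD139-treated mice. Each group was widely spread and overlapped the others. The log2 fold change was 0.14 (95% interval -0.35 to 0.63, adjusted p = 0.714) for vehicle-treated against naïve mice, 0.42 (-0.07 to 0.91, adjusted p = 0.163) between the light-exposed groups and 0.56 (0.06 to 1.05, adjusted p = 0.131) for TD139-treated against naïve mice, the last called higher by DESeq2 (adjusted p = 0.0455). Corrected for length and GC content, Abca8a, the longest member, was at 0.04 (-0.45 to 0.54, adjusted p = 0.907) between the light-exposed groups and at 0.27 (-0.23 to 0.76, adjusted p = 0.598) in TD139-treated against naïve mice. Its neighbouring paralog Abca8b had 560 to 1444 counts per mouse beside 3023 to 7103 for Abca8a, and the counting could split reads between these similar genes. Of 9 other ABCA genes, the photoreceptor gene Abca4 fell in vehicle-treated mice (-0.64, adjusted p = 0.0377, list median 0.00389), Abca4 and Abca5 rose in TD139-treated against vehicle-treated mice (0.71 and 0.53, adjusted p = 0.0100 and 0.0136, median 0.34), and Abca5 rose against naïve mice (0.53, adjusted p = 0.0468, median 0.41). None of these calls held with the correction for length and GC content. Abca1, higher in vehicle-treated against naïve mice, was the only gene of the list that it called. Abca4 was then at -0.62 (adjusted p = 0.0526) in vehicle-treated against naïve mice and at 0.42 (adjusted p = 0.129) in TD139-treated against vehicle-treated mice, and Abca5 at -0.14 (adjusted p = 0.261) between the light-exposed groups. The list medians for TD139-treated mice turned to -0.09 against vehicle and -0.03 against naïve mice.

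**Figure D2:**
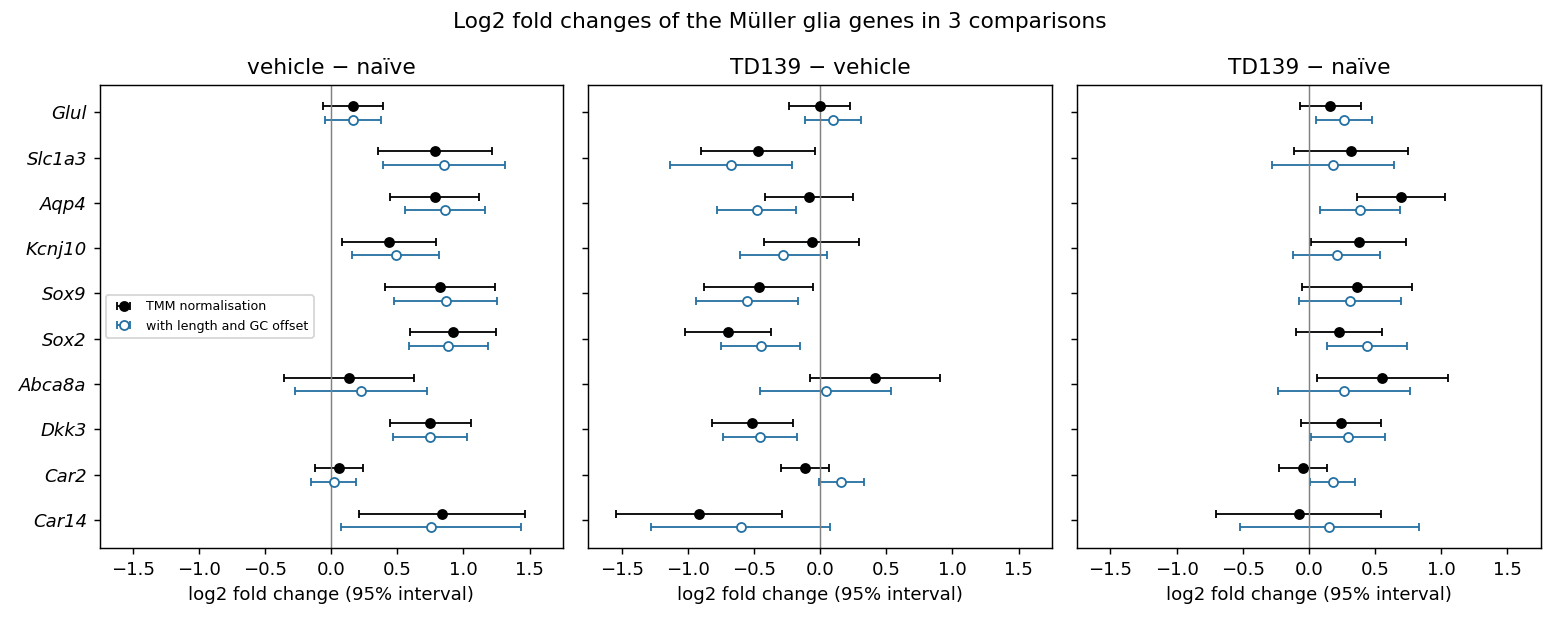
Log2 fold change on the x axis with its 95% interval for each member in the 3 comparisons. Filled points are from TMM normalisation and open points also hold a correction for transcript length and GC content. Car2 and Glul lie near 0 for vehicle-treated against naïve mice, and Aqp4 moves from -0.09 to -0.48 under the correction for TD139-treated against vehicle-treated mice.

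The calls were close to their threshold. When each mouse was left out in turn, the 5 genes called in vehicle-treated against naïve mice kept their direction, with log2 fold changes of 0.64 to 1.03, but Sox2 was called in 7, Sox9 and Dkk3 in 5, Aqp4 in 4 and Slc1a3 in 3 of 9 such fits. Without naïve mouse 1, 2 or 3 the members called higher were 1, 0 and 3, without vehicle-treated mouse 1, 2 or 3 they were 1, 6 and 0, and without TD139-treated mouse 1, 2 or 3, which enter through the shared estimate of spread, 6, 5 and 4. The number of all genes called higher moved as well, from 746 with all mice to 62, 1 and 140 when naïve mice 1, 2 and 3 were left out singly. It was 219, 620 and 65 for the vehicle-treated mice in this order, and 1167, 665 and 622 for the TD139-treated mice.

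In TD139-treated against vehicle-treated mice, Sox2 was called lower in all 9 of these fits, Dkk3 in 6 and Car14 in 3. The TD139-treated mouse 1 had the highest level of its group for 8 of the 10 members. Without it 5 members were called lower, namely Slc1a3 (-0.69, adjusted p = 0.0119) and Sox9 (-0.63, adjusted p = 0.0249) beside Sox2, Dkk3 and Car14. Without TD139-treated mouse 2 or 3 the single member called was Sox2, and without vehicle-treated mouse 1, 2 or 3 the numbers were 2, 3 and 1. All genes called lower numbered 2931, 759 and 867 without TD139-treated mouse 1, 2 or 3. They numbered 2167, 1844 and 1286 without vehicle-treated mouse 1, 2 or 3. Sox2 and Dkk3 stayed called without naïve mouse 1, 2 or 3, each of which left 3 members called. The call for Aqp4 in TD139-treated against naïve mice was kept in 4 of the 9 fits, and in the other 5 no gene at all was called higher in that comparison.

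Longer transcripts had higher values in TD139-treated mice across the whole transcriptome. Over 15079 genes, Spearman's rho of transcript length with the log2 fold change was 0.489 against vehicle-treated and 0.585 against naïve mice, while it was -0.112 for vehicle-treated against naïve mice. All 3 are computed over genes, and genes are no independent replicates. TD139-treated mice also had more reads outside genes (21.3 to 22.8%) than naïve (19.1 to 19.9%) and vehicle-treated mice (16.5 to 19.4%), and the part of these reads in the members' results was not tested.

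**Figure D3:**
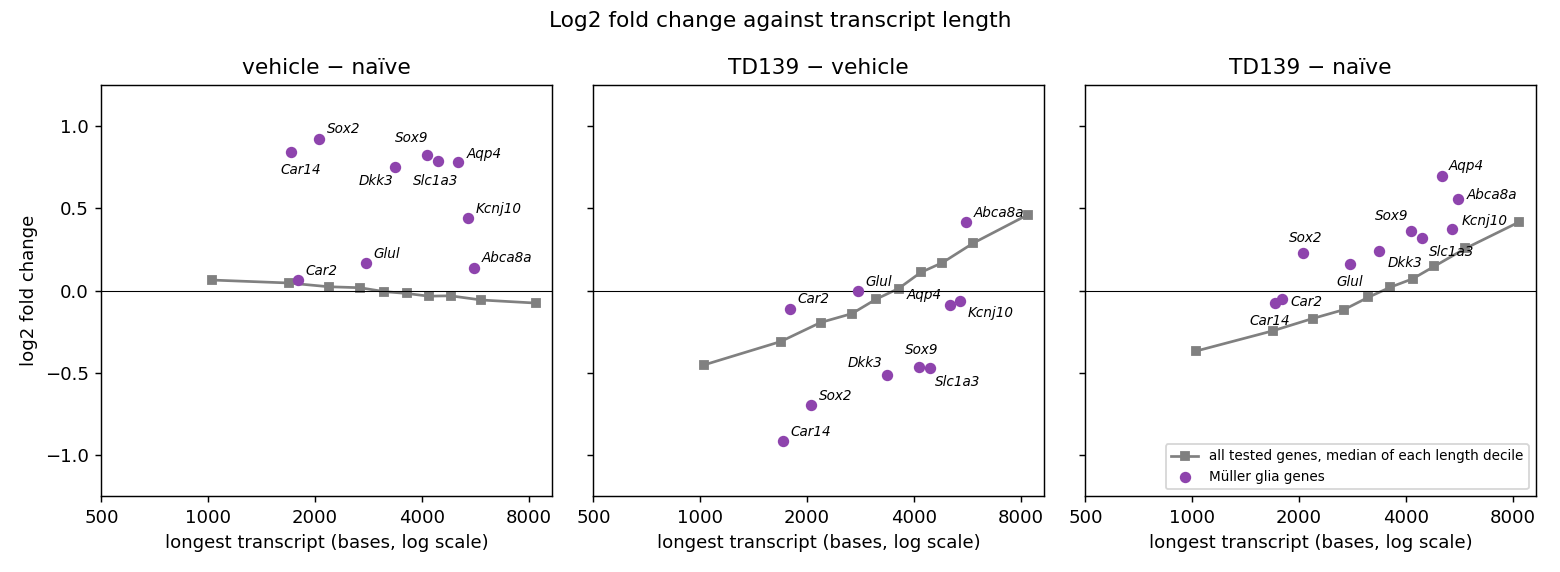
Log2 fold change on the y axis against the length of the longest transcript in bases on a log x axis, for the 10 members (purple points) and the medians of all tested genes in 10 bins of length (grey squares). In the middle and right panels the grey line climbs with length, from -0.45 to 0.46 and from -0.37 to 0.42, and in the left panel it runs from 0.06 to -0.08.

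With a correction for length and GC content, the same 5 members were called higher in vehicle-treated mice, beside 7.52% of all tested genes. In TD139-treated against vehicle-treated mice, 5 members were then called lower, beside 10.4% of all tested genes. They were Slc1a3 (-0.67, adjusted p = 0.0464), Aqp4 (-0.48, adjusted p = 0.0339), Sox9 (-0.55, adjusted p = 0.0459), Sox2 (-0.45, adjusted p = 0.0396) and Dkk3 (-0.45, adjusted p = 0.0304). The call of Sox9 was lost when the replicate number was added as a block (-0.54, adjusted p = 0.0698). Car14, the shortest member with a transcript of 1709 bases, was no longer called (-0.60, adjusted p = 0.175), and Aqp4, with 5054 bases, was called lower with this correction and not in the other fits of all 9 mice that lacked it. Against naïve mice neither a member nor any gene of the other lists was called in TD139-treated mice, and the share of all tested genes called higher was 0%. Without the vehicle-treated mouse 2, which enters through the shared estimate of spread, 0 of all tested genes were called in either direction in that comparison. With a mouse left out as well, 0 to 7 members were called lower in TD139-treated against vehicle-treated mice, and the count was 0 where the vehicle-treated mouse 1 or 3, or the TD139-treated mouse 2 or 3, was missing. All genes called lower numbered 1116 and 403 without vehicle-treated mouse 1 or 3, and 6 and 0 without TD139-treated mouse 2 or 3, so few or none of any kind were called in the last pair of fits.

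The members moved beside other glial and immune genes. Of 20 other Müller glia genes, 9 rose in vehicle-treated against naïve mice and none fell (median 0.75), and 13 fell and none rose in TD139-treated against vehicle-treated mice (median -0.72). By unadjusted p, DESeq2 and limma voom each, 1 of them was lower in the first and 1 higher in the second comparison. Without vehicle-treated mouse 2 the counts were 9 and 12, and without TD139-treated mouse 1 they were 12 and 17, with 1 then rising in the second comparison. With the correction for length and GC content 11 rose in the first comparison, and 10 fell and 1 rose in the second. This list shares genes with those above, among them Rax, Lhx2 and Hes1 with the SOX factors and regulators of retinal progenitors. Clu, which encodes clusterin, had means of 980, 2637 and 805 CPM in naïve, vehicle-treated and TD139-treated mice, with log2 fold changes of 1.43 (adjusted p = 0.0286) and -1.71 (adjusted p = 0.00651). Prdx6, a peroxiredoxin gene, had 172, 379 and 175 CPM (log2 fold changes 1.14, adjusted p = 0.0127, and -1.11, adjusted p = 0.00500). Spon1 had 103, 209 and 148 CPM (1.02, adjusted p = 0.0127, and -0.50, adjusted p = 0.0149). Mlc1 rose by 0.83 on the log2 scale in vehicle-treated against naïve mice (adjusted p = 0.0255), and Rax fell by 0.36 in TD139-treated against vehicle-treated mice (adjusted p = 0.0221). This fall of Rax was not called with the correction for length and GC content. In TD139-treated against naïve mice Spon1 was higher and Rax lower (0.52 and -0.43, adjusted p = 0.0458 and 0.0457, list median -0.09). In that comparison 2 were higher and 3 lower at an unadjusted p under 0.05, 2 and 2 by DESeq2, and 2 and 7 by limma voom. Without TD139-treated mouse 1 edgeR called 2 higher and 5 lower.

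Gliosis genes moved much further than the members. Of 16, 8 rose in vehicle-treated mice (median 2.34), where 15 passed an unadjusted p under 0.05, 15 DESeq2, 14 limma voom and 11 the fit corrected for length and GC content. Among the 8 were Cp (2.29, adjusted p = 0.0235), Vim (1.14, adjusted p = 0.0216), Lcn2 (5.79, adjusted p = 0.0321) and Serpina3n (4.04, adjusted p = 0.0434). Relative to vehicle, 14 fell in TD139-treated mice (median -2.28), with Cp at -1.86 (adjusted p = 0.0118), Vim at -1.47 (adjusted p = 0.00543), Stat3 at -1.09 (adjusted p = 0.0265) and Lcn2 at -4.88 (adjusted p = 0.0153). Gfap, encoding the filament protein that marks gliosis, was among the 14 (-2.96, adjusted p = 0.0182), while against naïve mice its value of 2.33 in vehicle-treated mice was not called (adjusted p = 0.0766). None of the 16 was called by edgeR in TD139-treated against naïve mice (median 0.04), 0 passed an unadjusted p under 0.05 or DESeq2, and limma voom called 1 lower. Without vehicle-treated mouse 2 the counts were 10 higher and 14 lower, and without TD139-treated mouse 1 they were 14 higher and 15 lower. The gliosis list summed to 455 to 673 CPM in naïve mice, to 1954 to 3440 CPM with vehicle and to 420 to 899 CPM with TD139, and the members to 4405 to 4847, 5641 to 6175 and 4960 to 5788 CPM, so the sum of the members, which Glul dominates, varied far less.

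**Figure D4:**
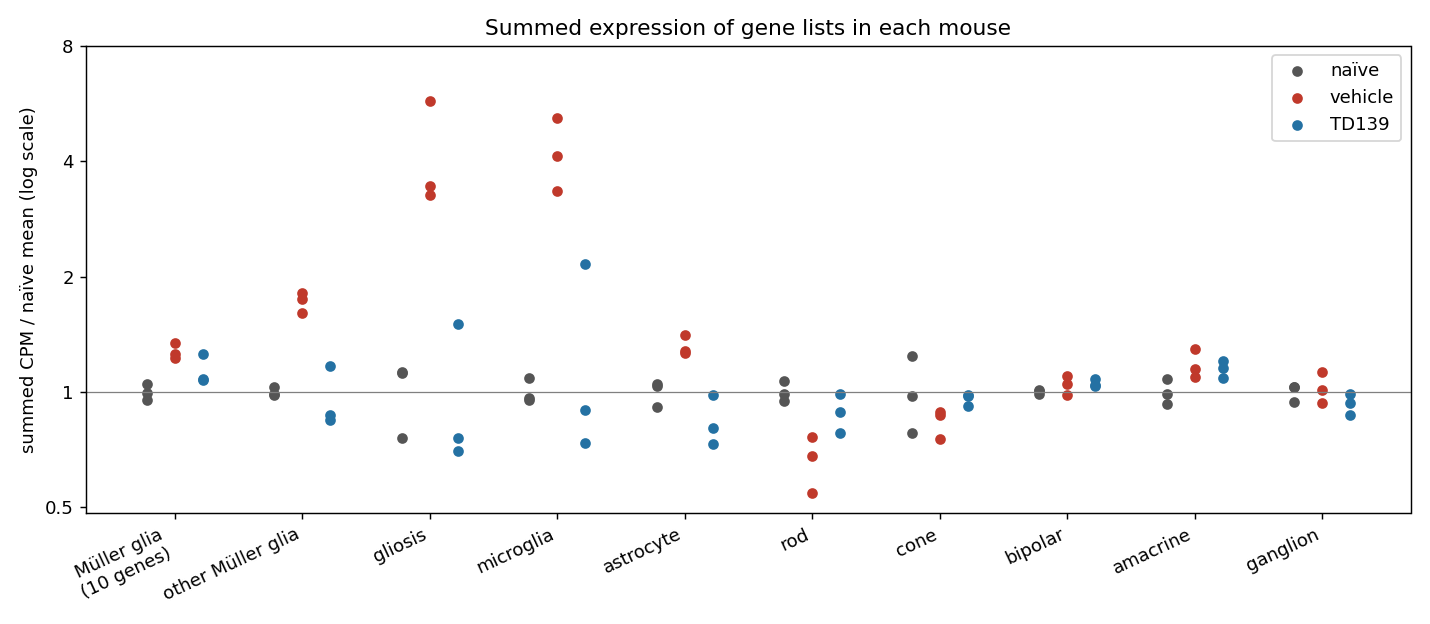
Summed CPM of the members and 9 other gene lists in each mouse, divided by the mean of the naïve mice, on a log y axis, with 1 point per mouse coloured by group. Gliosis and microglia sums of vehicle-treated mice stand highest, rod sums of vehicle-treated mice lie below those of naïve mice, and 1 TD139-treated mouse, mouse 1, is above the other 2 for the glial and microglial lists.

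Markers of other cells moved at the same time. Of 7 microglia markers, 5 rose in vehicle-treated mice (median 1.88) and 5 fell in TD139-treated against vehicle-treated mice (median -1.52), and their sum was 51.0 to 58.1 CPM in naïve mice, 179 to 278 CPM with vehicle and 39.3 to 116 CPM with TD139. Of 8 rod markers, 5 fell in vehicle-treated mice (median -0.66) and 5 rose in TD139-treated against vehicle-treated mice (median 0.50). They summed to 68690 to 77160 CPM in naïve mice, 39350 to 55100 CPM with vehicle and 56550 to 71400 CPM with TD139, the lowest TD139-treated value being that of mouse 1. Of 7 astrocyte markers, 6 were tested, 1 rose in vehicle-treated mice, Aldh1l1 (1.32, adjusted p = 0.0459, list median 0.60), and 3 fell in TD139-treated against vehicle-treated mice (median -0.72), and the sum was 641 to 735, 888 to 987 and 513 to 689 CPM. The part that a changed mix of cells had in the members' levels was not tested.

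Markers of the other retinal cells were mostly not called. None of 6 cone, 8 bipolar cell, 7 amacrine cell, 6 ganglion cell, 6 endothelial cell, 6 tested pigment epithelium or 6 lens markers was called in vehicle-treated against naïve mice by edgeR with TMM normalisation alone, with medians of -0.23, -0.04, 0.28, 0.11, 0.09, 0.55 and 3.43. At an unadjusted p under 0.05, 1, 2, 4, 0, 1, 0 and 0 of them passed, by DESeq2 1, 2, 2, 0, 0, 0 and 0, and by limma voom 1, 2, 6, 0, 0, 0 and 0. The lens median of 3.43 rests on vehicle-treated mouse 2, at 6928 CPM in sum. Vehicle-treated mice 1 and 3 had 8.22 and 2.69 CPM, below the 69.7 to 282 CPM of naïve mice. Relative to vehicle, 4 bipolar cell markers rose and 2 fell, and 1 amacrine cell, 1 ganglion cell, 1 endothelial cell and 2 pigment epithelium markers fell. Without the vehicle-treated mouse 2, 2 bipolar cell markers rose and 2 fell, and no endothelial cell or pigment epithelium marker was called. With the correction for length and GC content 2 bipolar cell markers rose, 1 pigment epithelium marker fell, and no amacrine, ganglion or endothelial cell marker was called in TD139-treated against vehicle-treated mice, whereas 3 amacrine cell markers (Tfap2b, Tfap2a and Gad2) were called higher in vehicle-treated against naïve mice. Of 4 tested oligodendrocyte markers 1 rose (Cnp) and 1 fell in vehicle-treated against naïve mice, and 1 was higher and 1 (Cnp) lower in TD139-treated against vehicle-treated mice. A single red cell marker could be tested and was not called. In TD139-treated against naïve mice edgeR called none of the 71 tested markers of other cells, whereas 18 passed an unadjusted p under 0.05, 9 DESeq2 and 24 limma voom.

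The genes most like each member over the 9 mice were sought among 10358 tested genes with a mean of at least 10 CPM, by the root mean square difference of centred log2 CPM. For Car2 they were Pitpna (0.0167) and Atp6v1c1 (0.0312), and for Glul Vamp4 (0.0623) and Rtn3 (0.0648), all nearly level over the mice. Sox2 was closest to Sri (0.0706) and Ctsb (0.101), and Dkk3 to Gbe1 and Nudt4 (0.0751 each). For Aqp4 they were Mfap3l (0.0897) and Tmem47 (0.0998), for Kcnj10 Rgs6 (0.0979) and Adam23 (0.0984), and for Slc1a3 Ddah1 (0.101) and Cobl (0.122). The remaining pairs were Stk10 (0.114) and Paqr8 (0.119) for Sox9, Elavl2 (0.138) and Ksr1 (0.151) for Abca8a, and Ddr1 and Piezo1 (0.147 each) for Car14. For comparison, the members' own root mean square deviation from their mean ranged from 0.0532 (Car2) to 0.541 (Car14).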

How the data were processed

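Retinal RNA of 9 mice was sequenced as stranded poly(A) libraries with single reads in 2 runs per mouse. The authors deposited, for each mouse and run, whole-number counts of reads per gene symbol from BaseSpace RNA Express, not scaled, although their data statement names normalized counts. The processing notes name the build mm10. The annotation and the use of strand in counting are not given in the sources used here. The labels and the methods name different RNA kits.

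Runs were summed per mouse (18 tables, 9 mice). Reads outside genes (16.5 to 22.8%) and ambiguous reads (0.303 to 0.471%) stayed out of library sizes. The runs of a mouse differed by a chi-square per degree of freedom of 1.63 to 1.80, mice of a group by 17.4 to 76.3. Counts were fitted for all 3 groups together with edgeR 4.0.16 (R 4.3.3), using filterByExpr, TMM and the robust quasi-likelihood F test, with p-values adjusted over 15196 genes. The SE is the size of the log2 fold change divided by the square root of F. The 3 samples of a group are separate mice. Positions, lengths and GC content came from GENCODE M21 (GRCm38), where 21777 symbols matched by name and 1298 by an older symbol. Promoters came from RefSeq.

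Alternatives were DESeq2 1.42.0, limma 3.58.1 (voom with sample weights), RLE or library size alone, no filter or at least 10 counts, fits of 2 groups, a replicate block, single runs, each mouse left out, and an offset per mouse for transcript length and GC content (splines with 4 degrees of freedom). Leaving out mice under that offset was added after seeing the data. Members and lists were chosen with earlier results of these data known. Named genes are the members, up to 4 called genes of each list and comparison with the highest mean CPM, and the 2 genes with the most similar profile to each member. Gfap, Abca8b and the genes that overlap members were named after their values were seen. Some genes that these rules name are not reported here. Simulated counts with 200 changed genes were used to check edgeR, edgeR with the replicate block, limma voom, DESeq2 and the length and GC offset. The other alternatives were not checked in this way. Imaging, staining and PCR of the study were not used here.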

Additional observations from a re-analysis of the deposited data

Results flagged for a closer look

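Reads outside genes, which enter none of the comparisons, made up 22.2% ± 0.809 (SD, n = 3) of the reads in TD139-treated mice, above the 19.3% ± 0.469 in naïve and the 18.1% ± 1.46 in vehicle-treated mice. They were flagged because they are a signal in data outside the main measurement that exceeds the level in the control mice, and every TD139-treated mouse (21.3 to 22.8%) was above each naïve (19.1 to 19.9%) and vehicle-treated mouse (16.5 to 19.4%). The part of these reads in the levels of the 10 Müller glia genes was not tested.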

How the results depend on the processing

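Over the 12 alternatives that kept every mouse of the groups compared, 4 to 7 members were called higher in vehicle-treated against naïve mice, 2 to 5 lower in TD139-treated against vehicle-treated mice and 0 to 2 higher in TD139-treated against naïve mice, and 0 in each opposite direction. With limma voom, or with the length and GC offset, 5 members were lower in TD139-treated against vehicle-treated mice. In TD139-treated against naïve mice, DESeq2 and limma voom each called 2 members higher, whereas 0 were called with only the 2 groups compared, with the replicate block, and with the offset with or without the block. With 1 mouse left out, the ranges were 0 to 6, 1 to 5 and 0 to 1 in these 3 comparisons, and with the offset as well, 2 to 7, 0 to 7 and 0. This last alternative was chosen after seeing the data.

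Only estimates that were not called reversed. Abca8a in vehicle-treated against naïve mice was -0.061 with limma voom and -0.071 to 0.37 with a mouse left out. In TD139-treated against vehicle-treated mice, Glul was 0.00343 without a filter on low counts, 0.10 with the offset with or without the block (0.0988 and 0.101) and -0.036 to 0.036 with a mouse left out, Aqp4 was -0.22 to 0.071 and Kcnj10 -0.21 to 0.054 with a mouse left out, and Car2 was 0.16 with the offset, also with the block (0.158). In TD139-treated against naïve mice, Car2 was 0.18 with the offset, also with the block (0.181), and Car14 was 0.15 with the offset, 0.14 with the block added and -0.48 to 0.14 with a mouse left out. The cause was not tested.

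Correlations of same-numbered deviations ranged from -0.259 to 0.282, and those of different-numbered deviations from -0.281 to 0.226. As the deviations are from means of 3 mice, these values cannot show whether replicate numbers pair the mice. With the replicate number as a block, 4, 3 and 0 members were called in the 3 comparisons, and it ended the calls of Slc1a3 in vehicle-treated (adjusted p = 0.0549) and of Aqp4 in TD139-treated against naïve mice (adjusted p = 0.0725). Added to the offset, the block ended the call of Sox9 in TD139-treated against vehicle-treated mice (adjusted p = 0.0698), which left 4 members lower. It changed no other call of a member.

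All genes called higher in vehicle-treated against naïve mice numbered 746 in the reported fit, 559 with the block and 1867 with limma voom, and 1 to 1167 with a mouse left out. For TD139-treated against naïve mice they were 413, 0 with the offset or the block, 1 with only the 2 groups compared and 3021 with limma voom, and 0 to 1523 with a mouse left out, being 0 when naïve mouse 1, naïve mouse 2, vehicle-treated mouse 2, TD139-treated mouse 2 or TD139-treated mouse 3 was the one missing. With 3 mice per group, calls near the threshold rest on single mice. With the reads of run 1 alone 4 members were called higher in vehicle-treated against naïve mice, without Sox9 (adjusted p = 0.0506), and with run 2 alone 5.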
